A study of Sus scrofa with 6 samples.

Results

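The mTORC1 pathway decides how strongly a muscle fibre makes protein, and its transcripts were compared between the loin muscle of Wei pigs and of Yorkshire pigs. Members were the rows whose gene symbol in the deposited table was on a list of 10 pathway genes, with the row of highest summed counts kept where a symbol had several. This gave 6 members of 25322 genes in the table: MTOR, RHEB, TSC2, SESN1, RPS6KB1 and EIF4EBP1. RPTOR has a row with no symbol, was matched by its gene ID and is given beside the members. DDIT4, TSC1 and AKT1 were not analysed here.

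RNA was sequenced from the longissimus dorsi, the long back muscle. There were 3 libraries of Wei pigs, slaughtered at 90 kg, and 3 of Yorkshire pigs, which the labels say were reared under similar conditions. The library titles start with YH for Wei and LWH for Yorkshire, codes that the labels do not explain. Sex, age and the slaughter weight of the Yorkshire pigs are not given in the labels. Counts of Y-linked genes, given below, differed between libraries. The labels do not tie libraries to separate pigs, and p-values therefore measure only the spread between these libraries.

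The kinase MTOR works in a complex, mTORC1, whose scaffold RPTOR brings in the substrates. The small GTPase RHEB switches the complex on at the lysosome. TSC2, with its partner TSC1, turns RHEB off, and growth factor signals through AKT kinases relieve that brake. SESN1 is a stress-induced sestrin that restrains the complex when leucine is scarce, and DDIT4 acts on the TSC complex under stress. Active mTORC1 phosphorylates the S6 kinase RPS6KB1 and the translation repressor EIF4EBP1, which frees the cap-binding factor for protein synthesis. Much of this control is by phosphorylation and location, which transcript counts do not measure.

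Library totals ranged from 15285197 to 27096747 counts. Of the skeletal muscle fibre markers, 8 of 10 had a row, and all 8 were counted in every library. Their summed level was 104513 to 191784 CPM (a gene's count as a share of the library's total, scaled by TMM) in Wei and 159047 to 182065 CPM in Yorkshire. Markers of fibroblasts, 7 of 8 with a row, summed to 566 to 1555 CPM in Wei and 2039 to 3372 CPM in Yorkshire, with no overlap. COL3A1, a collagen chain, was the largest part of that sum in every library, at 596 ± 342 CPM in Wei and 1964 ± 515 CPM in Yorkshire. The groups overlapped for 4 of the 7, PDGFRA, DCN, LUM and PI16, and DPT was the 1 that passed the test, at 17.7 ± 4.37 CPM in Wei and 43.2 ± 8.45 CPM in Yorkshire (adjusted p = 0.0189). Macrophage markers (10 of 10 with a row) summed to 45.7 to 53.3 CPM in Wei, and to 174 CPM in Yorkshire replicate 3 against 42.6 and 51.5 CPM in the other Yorkshire libraries; CD163 was at 0 in all but 1 library. Lymphocyte markers (10 of 10) summed to 3.03 to 4.55 CPM in Wei and 5.28 to 24.8 CPM in Yorkshire, with Yorkshire replicate 3 again the highest. The part of these cells in any result below was not tested. In bulk tissue, fewer cells of a type and less RNA per cell cannot be told apart. Y-linked genes summed to 6901 counts in Wei replicate 2, as from a male pig, and elsewhere the sum was 14 or less. By this measure sex appeared unbalanced between the breeds, and its part in any result was not tested.

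Per gene length, the members fell into an abundant and a scarce set. RHEB averaged 108 FPKM over the 6 libraries (84.1 to 124), SESN1 96.2 FPKM (66.7 to 150.3) and EIF4EBP1 56.4 FPKM (42.7 to 78.1). RPS6KB1 averaged 15.01 FPKM (12.4 to 16.4), MTOR 8.76 FPKM (7.42 to 11.3), TSC2 6.45 FPKM (5.65 to 7.81) and RPTOR 5.25 FPKM (4.21 to 7.05). The GTPase switch, the sestrin and the translation repressor were thus the abundant transcripts, and the kinase, its scaffold and the TSC2 brake the scarce ones. RHEB stood above SESN1 in 1 of 3 Wei libraries and in all 3 Yorkshire libraries. SESN1 stood above EIF4EBP1 in all 3 Wei libraries, with no overlap of the 2 genes' ranges there, and in 2 of 3 Yorkshire libraries, where the ranges overlapped. EIF4EBP1 stood above RPS6KB1, and RPS6KB1 above MTOR, in each of the 6 libraries with no overlap of their ranges. MTOR stood above TSC2 and TSC2 above RPTOR within each library, although the ranges across libraries overlapped.

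**Figure D1:**
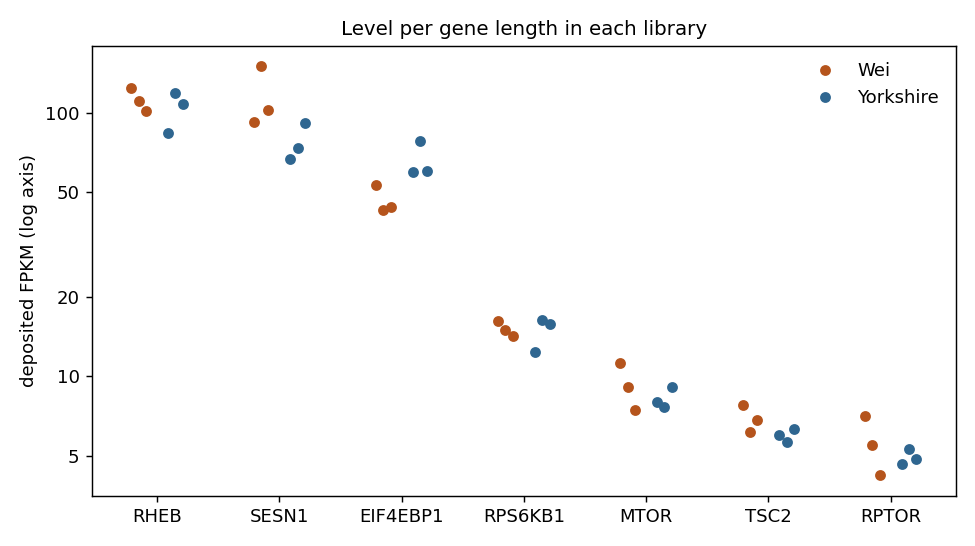
Deposited FPKM (log axis) of the 6 members and RPTOR in each library, with Wei points left of Yorkshire points and genes ordered by their mean. RHEB, SESN1 and EIF4EBP1 lie at 42.7 FPKM or higher in every library, and the other genes at 16.4 FPKM or lower.

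The breed comparison asked which of these transcripts differ between Wei and Yorkshire muscle. EIF4EBP1, the translation repressor, stood lower in Wei at 33.5 ± 1.90 CPM against 46.9 ± 7.56 CPM in Yorkshire (SD, n = 3 each). SESN1, the leucine-sensing brake, averaged 167 ± 50.5 CPM in Wei and 108 ± 11.3 CPM in Yorkshire. MTOR, RHEB, TSC2, RPS6KB1 and RPTOR had fold changes, Wei over Yorkshire, between 1.04 and 1.17. With edgeR's quasi-likelihood test, 0 of the 6 members passed a Benjamini-Hochberg adjusted p of 0.05, where 5.08% of all 13209 genes tested did. DESeq2, limma voom and a fit with the replicate number as a block also called 0, where they called 9.78%, 4.88% and 3.61% of all genes. SESN1 and EIF4EBP1, 2 of the 6 members, had an unadjusted p under 0.05, a level that 23.3% of all tested genes reached. All 6 members and RPTOR passed the count filter, with at least 385 counts in every library.

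EIF4EBP1 (ENSSSCG00000022301, chromosome 15, 55557785 to 55560890 in Sscrofa10.2) had 34.5, 31.3 and 34.7 CPM in Wei replicates 1 to 3 and 45.2, 55.1 and 40.3 CPM in Yorkshire replicates 1 to 3. Every Wei library lay below every Yorkshire library, and Yorkshire replicate 2 was the highest. EIF4EBP1 was the 1 member of 6 whose groups did not overlap, where 29.6% of all genes tested did not overlap in either direction. Its log2 fold change, Wei over Yorkshire, was -0.48 ± 0.15 (SE), with a 95% interval from -0.82 to -0.15, an unadjusted p of 0.0099 and an adjusted p of 0.0951. The groups were also apart on the deposited FPKM scale, at 42.7 to 53.4 FPKM in Wei and 59.8 to 78.1 FPKM in Yorkshire.

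SESN1 (ENSSSCG00000004390, chromosome 1, 84358199 to 84373672) had 119, 219.5 and 161 CPM in Wei replicates 1 to 3, and 100.4, 103 and 121 CPM in Yorkshire replicates 1 to 3. Wei replicate 2 was the highest and Wei replicate 1 lay just under Yorkshire replicate 3, so the groups overlapped. Among the Wei libraries it varied most of the tested members, with a coefficient of variation of 30.3%. Among the Yorkshire libraries its coefficient was 10.4%, and EIF4EBP1 varied most, at 16.1%. Its log2 fold change was 0.62 ± 0.21, with a 95% interval from 0.13 to 1.11, an unadjusted p of 0.0192 and an adjusted p of 0.13. With RLE scaling, an alternative to TMM, the groups still overlapped, at 119.7 to 219.7 CPM in Wei and 99.9 to 120.4 CPM in Yorkshire. By library size alone the groups did not overlap, at 132 to 214 CPM in Wei and 94.9 to 129.9 CPM in Yorkshire. On the deposited FPKM scale they were also apart, at 92.5 to 150.3 FPKM in Wei and 66.7 to 91.3 FPKM in Yorkshire. Without Wei replicate 2, the library with the Y chromosome counts, the log2 fold change was 0.38 with an adjusted p of 0.276.

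**Figure D2:**
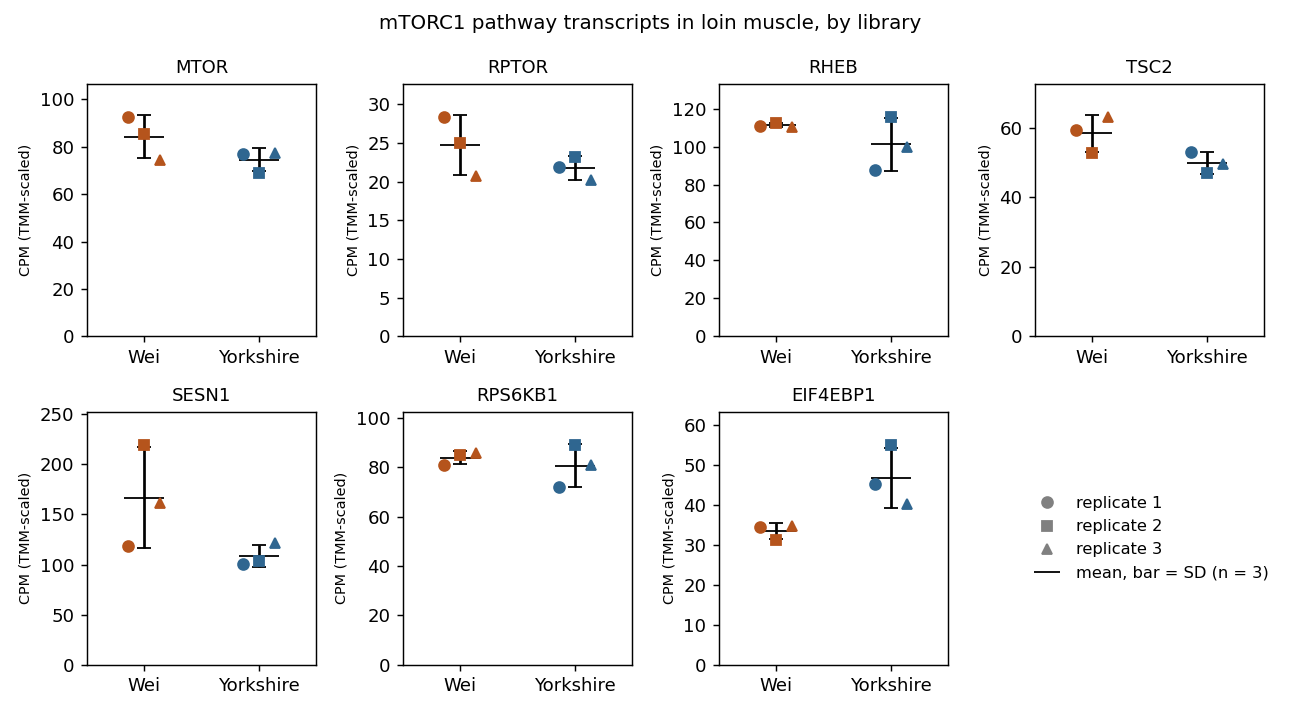
CPM after TMM scaling of each gene in each library, Wei left and Yorkshire right, with the mean and SD of 3 libraries. Wei and Yorkshire points are apart for EIF4EBP1 (31.3 to 34.7 CPM in Wei and 40.3 to 55.1 CPM in Yorkshire), while SESN1 reaches 219.5 CPM in Wei replicate 2 and the other genes overlap.

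The core of the complex showed small differences. MTOR (ENSSSCG00000003413, chromosome 6, 65191722 to 65317849) had 92.7, 85.4 and 74.6 CPM in Wei replicates 1 to 3 and 77.1, 68.8 and 77.5 CPM in Yorkshire replicates 1 to 3. Wei replicates 1 and 2 lay above the Yorkshire libraries and Wei replicate 3 among them. The log2 fold change of MTOR was 0.18 ± 0.13 (95% interval -0.12 to 0.47; edgeR adjusted p = 0.439). RPTOR (ENSSSCG00000017139, chromosome 12, 1614056 to 1689108) had 28.4, 25.03 and 20.7 CPM in Wei and 21.9, 23.2 and 20.1 CPM in Yorkshire. Its order of libraries in Wei was that of MTOR, and its log2 fold change was 0.18 ± 0.15 (95% interval -0.16 to 0.53; adjusted p = 0.500).

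The switch and its brake were also close. RHEB (ENSSSCG00000016434, chromosome 18, 6029289 to 6049266) had 110.6, 112.5 and 110.5 CPM in Wei replicates 1 to 3 and 87.8, 116 and 99.9 CPM in Yorkshire replicates 1 to 3. The Wei libraries were nearly equal, with a coefficient of variation of 1.03% against 13.8% in Yorkshire, whose values lay on both sides of them. The log2 fold change of RHEB was 0.14 ± 0.13 (95% interval -0.17 to 0.44; adjusted p = 0.571). TSC2 (ENSSSCG00000008040, chromosome 3, 42245980 to 42284735) had 59.2, 52.7 and 63.2 CPM in Wei and 53.1, 46.8 and 49.7 CPM in Yorkshire. Wei replicate 2 lay just under Yorkshire replicate 1 and the other Wei libraries above all of Yorkshire, for a log2 fold change of 0.23 ± 0.12 (95% interval -0.06 to 0.51; adjusted p = 0.309).

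RPS6KB1 (ENSSSCG00000017670, chromosome 12, 37386682 to 37434559), the kinase that acts on ribosomal protein S6, differed least. It had 80.8, 84.8 and 86.0 CPM in Wei replicates 1 to 3 and 71.9, 89.1 and 81.0 CPM in Yorkshire replicates 1 to 3, so that the Wei values lay inside the Yorkshire range. The log2 fold change was 0.06 ± 0.12 (95% interval -0.23 to 0.34; adjusted p = 0.823), and 88.4% of all genes tested had a larger absolute value. The corresponding share was 20.02% for SESN1 and 28.3% for EIF4EBP1. The intervals of MTOR, RPTOR, RHEB, TSC2 and RPS6KB1 each include 0 and run at the widest from -0.23 to 0.53, so a 2-fold difference in either direction lies outside all 5.

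**Figure D3:**
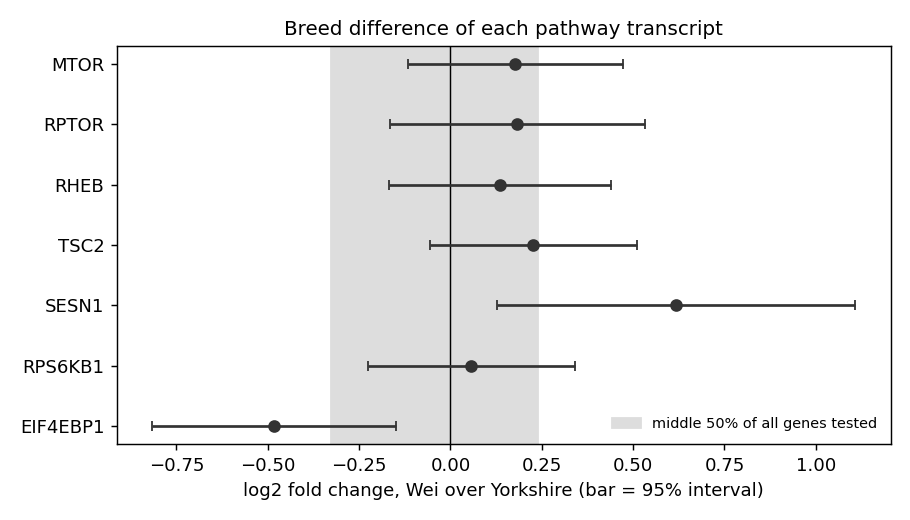
Log2 fold change, Wei over Yorkshire, of each gene with its 95% interval; the grey band holds the middle 50% of all genes tested (-0.33 to 0.24). SESN1 at 0.62 and EIF4EBP1 at -0.48 lie outside the band and the other 5 points inside it.

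SESN1, EIF4EBP1 and RPS6KB1 have paralogs with related roles, which were examined as shares of the family's summed FPKM, a choice made after the values were seen. SESN1 made up 99.0 ± 0.26% of sestrin FPKM in Wei and 97.0 ± 0.65% in Yorkshire (SD, n = 3 each). SESN2 and SESN3, the other sestrins, were scarce: SESN2 averaged 2.11 CPM in Wei and 3.35 CPM in Yorkshire, and SESN3 0.83 CPM in Wei and 1.96 CPM in Yorkshire. The S6 kinase pool was split nearly evenly, with RPS6KB1 at 49.96, 49.3 and 49.8% in Wei replicates 1 to 3, against 53.2, 54.8 and 55.7% in Yorkshire replicates 1 to 3. The other S6 kinase of the pool, RPS6KB2, had 27.3, 29.4 and 29.2 CPM in Wei and 21.3, 24.7 and 21.7 CPM in Yorkshire. All its Wei values lay above all its Yorkshire values, but it did not pass (0.34 ± 0.13; adjusted p = 0.149). RPS6KB1 averaged 83.9 CPM in Wei and 80.7 CPM in Yorkshire, well above RPS6KB2. The even split therefore rests on the gene lengths used for FPKM. The other shares also use FPKM, but SESN1 was likewise far above the other sestrins by CPM, at 167 in Wei and 108 in Yorkshire. EIF4EBP1 and its paralog EIF4EBP2 were near each other by CPM too, at 33.5 and 34.6 in Wei and 46.9 and 43.1 in Yorkshire. For the SESN1 and RPS6KB1 shares the groups did not overlap. An exact two-sided permutation test over libraries gave p = 0.1 for each, the smallest that 3 against 3 allows (0.15 adjusted over the 3 families). EIF4EBP1 made up 47.6 ± 5.602% of the summed FPKM of EIF4EBP1, EIF4EBP2 and EIF4EBP3 in Wei and 50.8 ± 5.36% in Yorkshire (exact permutation p = 0.5). EIF4EBP2, the other main repressor, had 39.8, 37.4 and 26.6 CPM in Wei and 48.1, 39.8 and 41.3 CPM in Yorkshire, and a log2 fold change of -0.32 ± 0.17.

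Around the members, 5 lists of other pathway genes held 90 genes, of which 85 had a row and 83 were tested. Of these 83, 9 passed edgeR's test and all 9 were higher in Wei, where 2.73% of all genes were called higher and 2.35% lower. The groups did not overlap for 31 genes higher and 6 lower, where the shares over all genes were 14.3% and 15.3%. The median log2 fold change over the 83 genes was 0.15, against -0.02 over all genes. The lists were chosen with earlier results of these data known, and no set test was run. These counts therefore describe the listed genes only. Each of the 9 called genes is named below, and none of them is a member.

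The list of stress and energy brakes, which also holds stress-response genes such as ATF4, held the strongest differences. In it 4 of 15 tested genes passed, all higher in Wei, where 5.08% of all genes passed. TXNIP, an inhibitor of thioredoxin that also limits glucose uptake (chromosome 4, 108991306 to 108995645), had 1504, 1147 and 1761 CPM in Wei replicates 1 to 3 and 371, 252 and 419.9 CPM in Yorkshire replicates 1 to 3. The lowest Wei value was well above the highest Yorkshire value, and the log2 fold change was 2.08 ± 0.24 (adjusted p = 0.00783). DDIT4L, a close relative of DDIT4 that also restrains mTORC1 (chromosome 8, 129550397 to 129555105), had 393, 600.2 and 574 CPM in Wei and 121, 148 and 178 CPM in Yorkshire. The groups were again far apart, for a log2 fold change of 1.81 ± 0.21 (adjusted p = 0.00805). CAB39, a scaffold of the kinase that activates AMPK, had a log2 fold change of 0.61 ± 0.13 (adjusted p = 0.0361). PPP1R15A, which guides a phosphatase to the stress-marked initiation factor eIF2, had 97.4, 103 and 41.4 CPM in Wei and 37.4, 18.4 and 18.2 CPM in Yorkshire. Wei replicate 3 lay close to Yorkshire replicate 1, and the log2 fold change was 1.71 ± 0.39 (adjusted p = 0.0468). The list as a whole did not move one way: 7 of its 15 log2 fold changes were positive and the median was -0.02. Its groups did not overlap for 4 genes higher and 4 lower in Wei, where the shares over all genes were 14.3% and 15.3%. ATF4, the transcription factor of the amino acid stress response, stood at 2865 ± 685 CPM in Wei and 3894 ± 60.2 CPM in Yorkshire and did not pass (adjusted p = 0.218).

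Among mTORC1 targets and readers, 2 of 23 genes passed, both higher in Wei, with a median log2 fold change of 0.09. ULK1, the autophagy kinase that mTORC1 holds inactive, had 175, 268 and 178 CPM in Wei and 91.1, 79.8 and 84.2 CPM in Yorkshire, a log2 fold change of 1.28 ± 0.18 (adjusted p = 0.0125). LPIN1, a phosphatidate phosphatase and mTORC1 substrate, had a log2 fold change of 1.53 ± 0.19 (adjusted p = 0.00906). RPS6, the ribosomal protein that S6 kinases phosphorylate, had 688, 673 and 718 CPM in Wei and 877, 1055 and 899 CPM in Yorkshire. All Wei values lay below all Yorkshire values, but RPS6 did not pass (-0.45 ± 0.13, edgeR adjusted p = 0.0958). Processed copies of this gene could share its reads, which was not tested. EIF4E, the cap-binding factor that EIF4EBP1 holds, stood at 99.98 ± 15.9 CPM in Wei and 93.8 ± 8.72 CPM in Yorkshire (0.09 ± 0.15; adjusted p = 0.750).

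**Figure D4:**
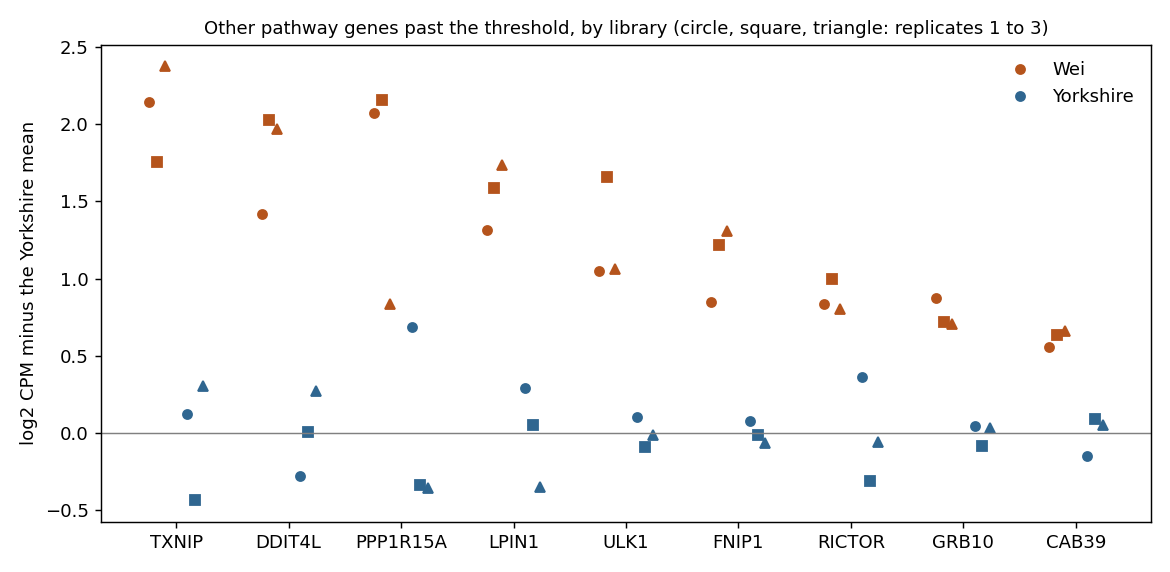
Log2 CPM of the 9 other pathway genes past the threshold in each library, minus the gene's Yorkshire mean, Wei left and Yorkshire right. Wei and Yorkshire points are apart for all 9 genes, from TXNIP with a log2 fold change of 2.08 to CAB39 with 0.61.

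Of the growth factor input genes, 1 of 14 tested passed, where 5.08% of all genes did, and the median log2 fold change was 0.18. The called gene was GRB10, an adaptor that dampens insulin receptor signalling and is an mTORC1 substrate, with 179, 161 and 159 CPM in Wei and 100.5, 92.3 and 99.9 CPM in Yorkshire. Its libraries agreed closely within each breed, and the log2 fold change was 0.77 ± 0.12 (adjusted p = 0.0163).

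Amino acid and lysosome input had 1 of 21 tested genes past the threshold, where 5.08% of all genes passed, with a median of 0.20. The called gene was FNIP1, a partner of folliculin that binds AMPK and acts on the Rag GTPases, with 74.0, 95.7 and 102 CPM in Wei and 43.5, 40.7 and 39.3 CPM in Yorkshire. The lowest Wei library lay well above the highest Yorkshire one, for a log2 fold change of 1.14 ± 0.15 (adjusted p = 0.0104). The list of partner subunits of the 2 mTOR complexes also holds TTI1 and TELO2, which help assemble them, and TBC1D7 of the TSC complex. In it 1 of 10 genes passed the threshold, beside the same 5.08% of all genes. The called gene was RICTOR, the scaffold of mTORC2, which was higher in Wei. All Wei values lay above all Yorkshire values for 6 of the 10, with RICTOR, TTI1 and TELO2 included, where 14.3% of all genes tested did so. RICTOR had 27.7, 30.9 and 27.2 CPM in Wei and 19.97, 12.6 and 14.9 CPM in Yorkshire, a log2 fold change of 0.85 ± 0.18 (adjusted p = 0.0393). RPTOR, which takes its place in mTORC1, had the much smaller value given above; the difference between the 2 scaffolds was not tested. MLST8, a subunit of both complexes, stood at 12.7 ± 2.26 CPM in Wei and 7.36 ± 1.22 CPM in Yorkshire and just missed the threshold (0.79 ± 0.20; adjusted p = 0.0565). MLST8, RPS6, ATF4, EIF4E and the paralogs were named after their values were seen.

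TXNIP and DDIT4L passed the threshold with each library left out in turn, at adjusted p of up to 0.0339 for TXNIP and 0.0499 for DDIT4L. LPIN1, ULK1 and FNIP1 missed it without Yorkshire replicate 2 (adjusted p = 0.0514, 0.0716 and 0.0566), and GRB10 without Yorkshire replicate 2 or 3. RICTOR and PPP1R15A passed in 1 and 2 of the 6 such fits, and CAB39 in none. The count of called pathway genes was 6, 6 and 7 without Wei replicates 1, 2 and 3, and 8, 2 and 5 without Yorkshire replicates 1, 2 and 3. Without both Wei replicate 2 and Yorkshire replicate 3, a choice made after the data were seen, it was 4: TXNIP, DDIT4L, LPIN1 and ULK1. The deposited table also carries a KEGG term for mTOR signaling. Of 36 tested genes that carry it, 3 passed, where 5.08% of all genes did, and these were ULK1, CAB39 and RICTOR.

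The patterns most like the members with the smallest p were sought by the root mean square distance of log2 CPM values, centred on each gene's mean over the 6 libraries, among 9357 genes with a symbol. Closest to EIF4EBP1 were TIMM8B, a chaperone of mitochondrial protein import (distance 0.045), ZNF75D, a zinc finger gene (0.054), and the gene listed as LINC00493 (0.060). TIMM8B had 65.8, 61.8 and 66.2 CPM in Wei and 83.3, 100.3 and 79.8 CPM in Yorkshire, with Yorkshire replicate 2 the highest as for EIF4EBP1. Closest to SESN1 were ZNF165, another zinc finger gene (0.11), MBNL1, a splicing regulator (0.11), and RETSAT, an enzyme of retinol metabolism (0.12). MBNL1 had 423, 799 and 545 CPM in Wei and 412, 399 and 395 CPM in Yorkshire, with Wei replicate 2 the highest as for SESN1. These 6 genes were picked by likeness over the same libraries as the breed test. Their similar values and highest library therefore follow from the choice. None of these 6 genes passed the threshold in edgeR's test.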

How the data were processed

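The authors deposited 1 table with a raw read count and an FPKM value per gene and library, per the file headers. CASAVA 1.7, TopHat2 2.0.9, edgeR and the build Sscrofa10.2 are listed, without their roles, in the submitters' processing notes. Which counter and annotation were used, and whether strand was, is not given in the sources used here, so overlapping genes cannot be told apart. The deposited FPKM values, each the count over a gene and a library constant (4854 genes checked), served for levels between genes, for paralog shares and as a second scale for EIF4EBP1 and SESN1.

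The main test was edgeR's quasi-likelihood test (version 4.0.16, R 4.3.3) with breed as its single term, on the 13209 genes kept by filterByExpr at a minimum count of 10, after TMM scaling. Adjusted p-values are Benjamini-Hochberg values over all of these genes, called under 0.05. Fold changes put Wei over Yorkshire, and the SE is the log2 fold change, fitted with no prior count, over the square root of F. Nearest patterns used log2 CPM with a prior count of 2. Libraries were grouped by the breed label. The procedure was tested on simulated data that gave every gene the same dispersion (0.0476). The real genes differ in dispersion, so that test does not measure the accuracy of the calls made here. Every pair of libraries differed by more than sampling noise (the lowest chi-square, per degree of freedom, was 26.3).

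The members, lists, tests and alternatives were chosen with earlier results of these data known. The rule for named genes took all members, each called gene of the lists (at most 5 per list), and the 3 nearest patterns of 2 members. One listed gene is not reported here and is left out of the list counts. Rows without a symbol were matched by gene ID (1774 of 9160). Alternatives were RLE and library size scaling, other count filters, DESeq2 1.42.0, limma 3.58.1 voom, the replicate number as a block, leaving out each library, and leaving out mitochondrial genes and ACTA1. The KEGG term, the paralog shares and leaving out 2 libraries together were added later. Markers of adipocytes, endothelium, smooth muscle and pericytes, and red blood cells were also summed, and the ranges of these sums overlapped between breeds. Single markers could still be apart. All Wei values were lower for 3 of 7 smooth muscle and pericyte markers (PDGFRB, RGS5 and NOTCH3) and 1 of 7 endothelial markers (PECAM1). Over all genes tested, 15.3% were apart in that direction. None of these markers passed the threshold. MYH11, ACTA2 and TAGLN, and endothelial KDR and TEK, had positive log2 fold changes. Figures were drawn with matplotlib 3.10.9.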

Additional observations from a re-analysis of the deposited data

Results flagged for a closer look

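Y-linked genes summed to 6901 counts in Wei replicate 2, above the level of 8 to 10 counts in the Yorkshire libraries. Wei replicates 1 and 3 had 9 and 14. Wei replicate 2 also had the highest SESN1 and ULK1 values and the lowest EIF4EBP1 value of the 6 libraries; whether these are related was not tested.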

How the results depend on the processing

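No member passed the threshold under any of the 14 alternatives chosen at the start or with 2 libraries left out; the lowest adjusted p of a member was 0.0604, for SESN1 with DESeq2. RPS6KB1 reversed without Yorkshire replicate 1 (-0.0206; 0.133 was its highest value with a library left out), and EIF4E without Wei replicate 1 (-0.0218; 0.208 was its highest such value); the other 28 of the 30 genes refitted singly kept their direction in every fit. MLST8 passed with DESeq2 (adjusted p = 0.0132) and with no count filter (0.0457), and RPS6 with DESeq2 (0.0383). The median over all genes shifted by 0.02 or less under the other scalings and filters. DESeq2 called 1291 genes (713 higher, 578 lower in Wei) and 15 other pathway genes, 2 of them lower; the cause was not tested. With each library left out in turn, 60 to 394 genes were called (37 to 259 higher, 23 to 135 lower) and 2 to 8 other pathway genes (all higher), with fewer samples in each fit. Without both Wei replicate 2 and Yorkshire replicate 3 there were 146 genes (105 higher, 41 lower) and 4 pathway genes, all higher. The replicate block gave 477 genes and 7 pathway genes in place of 671 and 9. Libraries sharing a number had deviations with correlations of 0.14, -0.0066 and 0.022, and only Wei replicate 1 correlated best with its own number, so no pairing was assumed. Of the 9 called pathway genes, 6 passed in every fit on all 6 libraries, and 2 in every fit that left out 1 of them. Without Wei replicate 2 the SESN1 value fell to 0.38. Counting error was at most 5.10% at the lowest count of a member or RPTOR; within Wei the coefficient of variation of RHEB was 1.03%, below its counting error of 2.40%.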
